A study of Mus musculus with 10 samples.

Results

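The transcripts described here are 87 probes of a mouse long non-coding RNA microarray that were brighter in white than in brown fat and that lost signal when brown adipocytes differentiated in culture. They were chosen from the deposited table of log2 values by 2 conditions. The lower of the 2 saline white fat values had to exceed the higher of the 2 brown fat values by at least 1 (a 2-fold difference), and the values at days 3, 5 and 7 of differentiation each had to lie at least 1 below day 0. Of 18997 probes in that table, 15387 carry a design number beginning with ASMM9PARTA, and 87 of these met both conditions. The scanner files give these probes a number and no gene, transcript or genome position, so no member could be named or placed, and their class as non-coding rests on the array's design rather than on an annotation used here. None of the 118 probes with a RefSeq mRNA accession on the array is in the deposited table.

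Long non-coding RNAs are transcripts without a recognised protein product, and many are restricted to 1 tissue or 1 stage of differentiation. White fat stores energy as triglyceride, whereas brown fat burns it for heat through uncoupled mitochondria. Both kinds of depot also hold preadipocytes, fibroblasts, blood vessels and immune cells, and a preadipocyte in culture leaves its fibroblast-like state as it fills with lipid. CL stimulates the β3-adrenergic receptor of adipocytes, which drives lipolysis and recruits heat-producing adipocytes within white fat.

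RNA came from wild-type mice on chow that had received daily intraperitoneal injections for 7 days. Saline-injected mice gave 2 arrays of brown fat and 2 of white fat, and mice given the receptor agonist (CL in the labels, 1 mg/kg) gave 2 arrays of white fat. Brown adipocytes, whose source the labels do not describe beyond wild type, gave 1 array each at days 0, 3, 5 and 7 of differentiation. The labels call the tissue arrays biological replicates and give no strain, age, sex, depot or number of mice per array, so p-values measure only the spread between these arrays. Values below are log2 signals minus the array's own 75th percentile unless the deposited table is named. They are compared between samples for 1 probe, not between probes.

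Across the 10 arrays 55.2% to 78.3% of 59709 probes were well above background. The scanner's test for this was also passed by 10.9% to 36.4% of the negative control spots on an array. The share was 26% and 29.1% for saline white fat and 32.3% at day 0. Passing the test is therefore weak evidence that a dim probe was expressed. The 2 CL arrays correlated at r = 0.939 over the probes tested, beside 0.983 for saline white fat and 0.980 for brown fat. All tissue arrays were scanned together, with CL in 1 column of the slide and saline in the other, and with brown and saline white fat in different rows, so that neither treatment nor tissue can be told apart from slide position. The same holds for the days of culture, which took rows 1 to 4 of a second scan. Of 36 genes looked for as markers of brown fat, white fat, preadipocytes, immune cells and other cell types, 3 had a named probe. Glycerol kinase (Gk), a brown fat marker, read 0.59 and 0.80 in brown fat and -1.79 and -1.67 in saline white fat. After CL it read -1.1 on each white fat array. In the cells it read -0.27, -0.84, -0.94 and -0.41 over the days, so no later day exceeded day 0. Ucp1, Lep and the other defining markers had no named probe, and the labels could not be checked against them. Ccl21b and Ccl21c, near-identical genes for a chemokine of lymphatic vessels and lymphoid tissue, stood at 4.26 to 5.84 in brown fat and 7.48 to 7.82 in saline white fat, so a signal of lymphoid tissue moved with the tissue difference that chose the members. In the cells at day 0 Ccl21b read -0.60 and Ccl21c 1.68. The part of other cell types in the members' values was not tested, and in tissue fewer cells of a type cannot be told apart from less RNA per cell.

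The first property that chose the members, white over brown fat, had a median of 2.01 on the log2 scale over the 87 probes and ran from 1.17 to 4.14. The median level was -1.78 and -1.51 on the brown fat arrays and 0.16 and 0.37 on the saline white fat arrays. The difference was at least 4-fold for 47 members and at least 8-fold for 12. As a selected quantity it is given without a test. In the deposited table the members just inside this condition were ASMM9PARTA018518, ASMM9PARTA050615 and ASMM9PARTA045316, with gaps of 1.01, 1.02 and 1.04. Probes just outside it, ASMM9PARTA045936, ASMM9PARTA009607 and ASMM9PARTA010193, had gaps of 0.986, 0.980 and 0.978. On the day 0 condition ASMM9PARTA018518, ASMM9PARTA019356 and ASMM9PARTA003792 were just inside, at 1.01, 1.02 and 1.02. ASMM9PARTA047620, ASMM9PARTA008184 and ASMM9PARTA010673 were just outside, at 0.999, 0.995 and 0.994. The edge of the set is thus a cut through a continuous range, and ASMM9PARTA018518 lay at the edge of both conditions.

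The 2 conditions met in few probes. Of the 15387 design-number probes, 900 were higher in white fat and 475 were lowered at all 3 later days, and the 87 members make up 9.67% of the former and 18.3% of the latter. Lowered probes made up 3.09% of all design-number probes and 1.23% of the 1629 that were higher in brown fat by the same margin, which is 20 probes. Raised probes were about as frequent among those higher in white fat, at 90 of the 900, and stood at 6.64% overall. A probe higher in white fat was therefore neither mainly lowered nor mainly raised in culture. These shares are descriptions of the selection and were not tested.

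Among the members the gap between the tissues was widest for ASMM9PARTA006744, which read 1.25 and 1.80 in brown fat and 5.94 and 5.40 in saline white fat. Its white fat mean was 17.6-fold the brown fat mean, and it was well above background on both brown fat arrays. ASMM9PARTA019747 read -2.12 and -1.56 in brown fat against 1.19 and 2.14 in saline white fat, a difference of 3.50. ASMM9PARTA048925 read -0.99 and -0.87 against 2.55 and 2.54, a difference of 3.47 with little spread between replicates. ASMM9PARTA003792 read 2.48 and 2.59 against 5.45 and 6.34, a difference of 3.36. In each of these 4 probes the brown fat values lay close together compared with their distance from white fat.

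The remaining members with the widest gaps were dim in brown fat. ASMM9PARTA006809 (-5.17 and -4.13 in brown fat, -1.31 and -0.69 in saline white fat) and ASMM9PARTA002283 (-5.21 and -5.09 against -1.33 and -2.26) failed the scanner's background test on both brown fat arrays. Their folds therefore depend on the floor used. With brown fat raised to the lowest signal that passed that test on each array, they were 5.56 for the former and 3.20 for the latter. A spot above that signal can still fail the test, so these folds are not strict bounds. With normexp background correction the log2 differences were 1.53 and 1.16 in place of 3.65 and 3.36, which are smaller folds still, so the size depends on how background is treated. ASMM9PARTA046627 and ASMM9PARTA046551 were the other 2 members that failed the test on both, with folds of 5.55 and 1.73 by the same floor. In all, 59 members were well above background on both brown fat arrays, 24 on 1 and 4 on neither, while all 87 were so on both saline white fat arrays and at day 0. Brown fat array 1 detected 59 members and array 2 detected 83, so the low end of the brown fat values is less well measured on array 1.

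In culture the members stood at a median of 1.77 at day 0 and at -1.34, -1.13 and -0.70 at days 3, 5 and 7, on the same scale. The median difference from day 0 was -2.54 at day 3, -2.44 at day 5 and -2.29 at day 7. At day 3 the loss was at least 4-fold for 63 members and at least 16-fold for 20. There was 1 array a day, so none of these differences has a replicate check, and the condition that chose the members used them.

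The deepest losses by day 7 were those of ASMM9PARTA006526 and ASMM9PARTA047299. ASMM9PARTA006526 went from 5.71 at day 0 to -1.18 at day 3, 0.20 at day 5 and -0.12 at day 7, which left 1.76% of its day 0 signal. ASMM9PARTA047299 went from 3.99 to -1.67, -0.82 and -0.70. Its neighbour in the design, ASMM9PARTA047300, went from 2.39 to -2.46, -2.14 and -1.65. Each of these 3 probes was lowest at day 3 and was still at least 16-fold below day 0 at day 7. ASMM9PARTA001599 behaved likewise, from 3.24 to -1.89, -1.40 and -1.09. ASMM9PARTA045616 had the largest measured loss at day 3, from 3.08 to -4.30, and then stood at -3.07 and -1.39. That rank depends on background treatment: with normexp correction its day 3 difference was -5.14, behind -6.11 for ASMM9PARTA006526, -6.01 for ASMM9PARTA048653 and -5.18 for ASMM9PARTA001946. ASMM9PARTA044744 took another course, from 0.89 through -1.17 and -1.88 to -3.34, with -2.06 before day 3 and -2.17 after it.

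The choice of members did not compare days 3, 5 and 7 with each other, but it asked that each be at least 1 below day 0. Probes that came back closer to day 0 than that were left out, so the size of a rise after day 3 was limited by the choice. The lowest value fell on day 3 for 47 members (54.0%), on day 5 for 18 (20.7%) and on day 7 for 22 (25.3%). Of days 3, 5 and 7, day 3 was also lowest for 49.6% of probes lowered but not higher in white fat. Day 5 was lowest for 29.9% of these and day 7 for 20.5%. Among all probes measured in the cells the shares were 26.7% for day 3, 44.7% for day 5 and 28.5% for day 7. From day 3 to day 7 the members' difference ran from -2.17 to 4.72 with a median of 0.46. Day 7 was at least 2-fold above day 3 for 21 members, within 2-fold for 59 and at least 2-fold below for 7. Among all 48478 probes measured in the cells, 4.52% were at least 2-fold above day 3 at day 7 and 7.7% at least 2-fold below. Among the 381 measured probes that were lowered but not higher in white fat, 47 (12.3%) were at least 2-fold above and 27 (7.09%) at least 2-fold below. The share of members that were at least 2-fold above day 3 was 24.1%, and its difference from the other sets was not tested. With normexp correction the count at least 2-fold above day 3 was 12 and the count below was 3.

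Members that returned had the deepest median loss by day 3, though the classes overlapped. The 21 with a 2-fold rise after day 3 had lost between 2.14 and 7.38 by day 3 on the log2 scale (median -4.50). The day 3 difference of the 59 that stayed within 2-fold ran from -5.66 to -1.11 (median -2.33). For the 7 that went on falling its median was -1.38. Day 3 enters both quantities, so they are not independent. The choice of members also required day 7 to lie at least 1 below day 0. A 2-fold rise after day 3 was therefore possible only from a deeper day 3 loss than the other classes needed. The order of the classes and the correlation given next are thus partly set by the choice. Across the 87 members Pearson's r between the 2 differences was -0.76 and Spearman's rho was -0.72, as a description of probes on shared arrays. The tissue difference did not follow these courses: its median was 2.01, 2.00 and 2.16 in the 3 classes.

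The largest measured return was that of ASMM9PARTA018350, at 1.66 on day 0, -5.31 on day 3, -2.69 on day 5 and -0.59 on day 7. It was not well above background at day 3. With that value raised to the lowest signal that passed the background test on the array, day 3 was 79.4-fold below day 0. By the same floor day 7 was 16.7-fold above day 3. With normexp correction the log2 differences of ASMM9PARTA018350 were -3.88 and 1.89, smaller than both of these folds. The return was then below the 2.78 of ASMM9PARTA048653, so neither its size nor its rank is firm. ASMM9PARTA048653 went from 5.33 to -1.50 and back through 0.07 to 1.90. ASMM9PARTA046627 went from 3.17 to -3.10, -1.38 and 0.26, and ASMM9PARTA001923 from 4.46 to -0.34, 1.61 and 2.79. At day 7 these 4 probes were 3.13 to 4.72 above day 3 and still 1.67 to 3.43 below day 0. The opposite course was shown by ASMM9PARTA014141 (1.06, -0.21, -0.47 and -2.02 over the 4 days), ASMM9PARTA009928 (4.04, 2.78, 2.87 and 1.21) and ASMM9PARTA002283 (-1.84, -3.79, -4.18 and -5.50), besides ASMM9PARTA044744. ASMM9PARTA002283 was not well above background at day 7, and lay 4.71-fold below day 0 with its day 7 value raised to the floor in the same way. In ASMM9PARTA014141 and ASMM9PARTA009928 the step from day 5 to day 7, -1.55 and -1.67, was deeper than any earlier one.

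Set against tissue, most members were brighter in undifferentiated cells than in white fat. Day 0 lay above both saline white fat arrays for 64 members, between them for 10 and below both for 13, beside 53.3% of all tested probes above both and 33.8% below both. The median difference was 0.99 over the members, 0.25 over all tested probes, -0.90 over the probes higher in white fat but not lowered in culture, and 1.43 over the 381 lowered but not higher in white fat. Of these 381, 85.6% lay above both white fat arrays at day 0, against 73.6% of members, so the trait was shared with probes lowered in culture, which were chosen with day 0 high as the members were. At day 7 the cells lay above both brown fat arrays for 59 members, within their span for 6 and below both for 22, beside 48.7% above both and 37.5% below both of all tested probes. Among the 813 probes higher in white fat only, also chosen as low in brown fat, 62.4% lay above both, against 67.8% of members. Day 7 was below both saline white fat arrays for 70 members, beside 37.8% of all tested probes and 72.3% of the 813. The median difference of day 7 was 0.95 from brown fat and -1.19 from saline white fat. Cells and tissue were scanned separately, so these differences cannot be told apart from the scan. No difference between these sets was tested. At day 0 ASMM9PARTA051218 and ASMM9PARTA018219 stood furthest above saline white fat, each by 4.31. ASMM9PARTA049880 lay furthest in the other direction. These 3 probes were chosen after their values were seen. The last read 5.54 and 6.45 in brown fat, 7.29 and 8.08 in saline white fat and 7.30 and 8.16 after CL, but -1.997, -3.91, -4.44 and -3.41 over the days of culture. Its day 0 value differed from white fat by -9.68 on the log2 scale, and with normexp correction its difference from day 0 at day 7 was -0.48 in place of -1.41.

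The CL arrays took no part in the choice of members, and they show where these transcripts stood in white fat after the agonist. By limma over 43542 probes 0 of the 87 members were called at an adjusted p under 0.05, where 0.0% of all probes were called higher and 0.0% lower. The smallest adjusted p of a member was 0.68. At an unadjusted p under 0.05, 10 members were lower and 1 higher after CL, beside 3.5% of all probes lower and 1.96% higher. The mean of the CL arrays lay below the saline white fat mean for 69 members (79.3%) and above it for 18. It lay below for 78.8% of the 813 probes higher in white fat only. The share was 73.8% of the 381 lowered only and 57.9% of all tested probes. Over the members the median difference was -0.45 on the log2 scale, beside -0.08 over all tested probes. No call was made for any member under any of the other 16 settings tried, and none of these settings turned the sign of the median difference.

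This difference is not independent of the selection, since members had to be high on both saline white fat arrays, and the comparison uses those arrays again. Both CL values lay below both saline values for 29 members and above both for 2, while they overlapped in 56. Among all probes tested 15.4% had both CL values below and 12.6% had both above. Among the 813 probes that were higher in white fat and not lowered in culture, chosen on the same arrays, 315 (38.7%) had both below, and their median difference was -0.42. The share among members was 33.3%, below that of the other probes higher in white fat, and the difference between these sets was not tested. When probes were chosen with only 1 saline white fat array and CL was set against the other, the medians with saline array 1 as the chooser (121 probes) were -0.32 for CL array 1 and -0.54 for CL array 2, beside -0.39 and 0.04 over all tested probes. With saline array 2 as the chooser (120 probes) they were -0.41 and 0.06, beside -0.19 and 0.25. In 3 of these 4 pairings the median of the chosen probes was below that of all probes, and in 1 it lay above 0. The 2 CL arrays lay on opposite sides of the saline mean for 35 members and were at least 2-fold apart for 28. Over all tested probes 35.0% were 2-fold apart between the CL arrays, beside 4.42% between the saline white fat arrays. Ccl21b, the lymphoid chemokine gene, read 6.16 and 7.10 after CL against 7.72 and 7.49 after saline, and its part in the members' values was not tested.

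The 5 members described next had the largest measured differences among those with both CL values below both saline values. ASMM9PARTA046551 read -1.71 and -3.65 after saline and -4.86 and -4.80 after CL, where it was not well above background. With the CL values raised to the lowest signal that passed the background test on each array, it was 1.89-fold lower after CL. Its saline arrays were themselves more than 2-fold apart. With normexp correction its difference was -0.66, against -1.56 for ASMM9PARTA006744, so its place among the 5 rests on signals near background. ASMM9PARTA006744, the probe with the widest tissue gap, read 5.94 and 5.40 after saline and 3.77 and 4.63 after CL (log2 difference -1.47, SE 0.45, limma adjusted p = 0.737). ASMM9PARTA048922 read -0.78 and -0.93 after saline and -2.38 and -2.11 after CL (log2 difference -1.39, SE 0.40, limma adjusted p = 0.68). ASMM9PARTA000126 and ASMM9PARTA005266 had differences of -1.22 and -1.17. In these probes the groups did not overlap, and none passed the threshold across all probes.

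Both CL values were above both saline values in 2 members. ASMM9PARTA048319 read -0.19 and 0.70 after saline and 1.44 and 2.15 after CL, a difference of 1.54 (SE 0.49, limma adjusted p = 0.764). ASMM9PARTA014432 read 1.39 and 1.25 after saline and 1.59 and 2.58 after CL. The CL arrays disagreed widely in ASMM9PARTA014141, at 2.36 on array 1 and -1.70 on array 2, with the saline arrays at 1.35 and 0.27 between them. In ASMM9PARTA017942, named after its values were seen, they stood at 1.67 and -2.53 around saline values of 1.64 and 0.77. For these probes no direction under CL can be read, and the sign of the CL minus saline difference turned in 11 of the 24 named members when 1 array was left out.

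CL-treated white fat lay nearer to saline white fat than to brown fat for most members. Both CL values exceeded both brown fat values for 84 of 87 members (96.6%), beside 22.9% of all tested probes and 87.6% of the 813 probes higher in white fat only. The median difference from brown fat was 1.56 over the members, 1.40 over those 813 and -0.03 over all tested probes, and the difference between the sets was not tested. On a scale from the brown fat mean at 0 to the saline white fat mean at 1, the CL mean had a median position of 0.77, with 9 members under 0.5, 60 from 0.5 to 1 and 18 at 1 or above. Both ends of this scale are arrays that chose the members, so the position is a description. Over the 813 probes the median difference of saline white from brown fat was 1.84, beside 2.01 over the members. Lying nearer to saline white fat was thus not particular to the members. By limma 17 members were called higher in CL-treated white fat than in brown fat and 0 lower, where 1.98% and 1.51% of all probes were. The brown fat arrays chose the members as low, so neither this count nor the adjusted p-values below are independent of the choice, and they are given as a description. The count also rested on single arrays: without brown fat array 1 or 2 it was 1 or 2, and without CL array 1 or 2 it was 31 or 52. ASMM9PARTA048319 had the largest measured difference from brown fat, at -3.45 and -2.68 there and 1.44 and 2.15 after CL (log2 difference 4.86, SE 0.49, limma adjusted p = 0.00614). Brown fat array 1 did not show it well above background, and with normexp correction the difference was 3.37, below the 3.56 of ASMM9PARTA003792. Its adjusted p ran from 0.000496 to 0.0397 over the 15 alternative fits that tested it. ASMM9PARTA003792, at 5.86 and 6.57 after CL, was 3.68 above brown fat (SE 0.45, limma adjusted p = 0.0104), and its call was lost without either brown fat array and with array weights (largest adjusted p 0.0738). ASMM9PARTA006809 was 5.00-fold above brown fat when the brown fat values were raised to the lowest signal that passed the background test. On the measured values its limma adjusted p was 0.016. Under normexp correction its log2 difference was 1.45, a smaller fold, and its call was lost without brown fat array 1 and with array weights.

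Because the probes have no names, the other properties at hand were their design numbers, slide positions and the likeness of their profiles. Members were numbered from 126 to 51418 and spread over rows 8 to 384 of the array. Of the members, 10 were within 10 design numbers of another member, and 3 pairs had consecutive numbers: ASMM9PARTA000789 with ASMM9PARTA000790, ASMM9PARTA010678 with ASMM9PARTA010679, and ASMM9PARTA047299 with ASMM9PARTA047300. The last pair had profiles within 0.48 of each other on every array after each probe's mean was removed. The others differed by up to 2.38 and 2.24 on 1 array. In 93 further consecutive pairs only 1 probe was a member. Of these neighbours 4 met the white fat condition alone and 4 the day 0 condition alone, so neighbouring numbers did not in general share the pattern. Over 9106 consecutive pairs in the deposited table the median r over the 10 arrays was 0.12.

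Some members with distant numbers had almost the same profile, and are described after their values were seen. ASMM9PARTA013793 and ASMM9PARTA016345 differed by at most 0.12 on any array after each probe's mean was removed (r = 0.998 over 10 arrays, which share all libraries). ASMM9PARTA013793 read 2.70 and 2.73 in brown fat, 4.50 and 4.75 in saline white fat, 4.42 and 5.16 after CL, and 5.11, 2.99, 2.98 and 3.67 over the days. ASMM9PARTA018219, ASMM9PARTA018300 and ASMM9PARTA018674 formed a group of 3, within 0.45 of each other on every array. ASMM9PARTA018300 read -1.78 and -1.29 in brown fat, 0.00 and 0.40 in saline white fat, -0.03 and -0.42 after CL, and 4.16, -0.34, 0.15 and 1.36 over the days. Whether such probes report 1 transcript or several was not tested, so 87 probes need not be 87 transcripts.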

How the data were processed

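The members and the gene lists were chosen with earlier results of these data known. The deposited scanner files give 1-colour intensity, made with Agilent Feature Extraction 11.0.1.1 per the file headers (the submitters' processing notes name version 9.1), and flags that mark each spot. The deposited table holds log2 values, and the authors' normalization behind it is not given in the sources used here. Each column correlated with its array's quantile-normalized signal at r of 1.00 and had a median of 7.15 to 7.45, so its scale and direction are known and its normalization and centring are not.

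Control spots, negative controls and spots with an outlier flag were left out. Replicate spots were averaged as log2 values, and the array's 75th percentile was subtracted. One limma 3.58.1 model (R 4.3.3; lmFit, eBayes) was fitted to the 6 tissue arrays over the 43542 probes that both arrays of 1 or more groups showed well above background, with 3 residual and 4.46 prior degrees of freedom and Benjamini-Hochberg adjustment (threshold 0.05, two-sided). All 87 members were among the probes tested, and none had a flagged or saturated spot. The cells have 1 array a day and no test. The fit was run on simulated data in which all probes and arrays shared a common spread, so that check did not cover the wider spread between the CL arrays. Named probes are the 6 with the widest white-brown gap, the 6 with the deepest loss by day 7, the 5 furthest below and up to 5 furthest above saline on both CL arrays, the 4 with the largest rise and the 4 with the largest fall from day 3 to 7, and the 3 with the smallest adjusted p against saline and against brown fat. The files hold no mean spot signal, so normexp used the median signal, with an offset of 50, followed by quantile normalization. Alternatives were other scalings, normexp, the deposited table, filters, array weights, a replicate block and leaving out each array.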

Additional observations from a re-analysis of the deposited data

How the results depend on the processing

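The number of members was 114 when the same conditions were applied to log2 signals relative to the 75th percentile (85 shared), 88 under quantile normalization (86 shared), 40 with normexp (all 40 shared), 408 at a threshold of 0.5 and 29 at 1.5, and between 93 and 128 with 1 saline array left out. The median white-brown difference was 1.34 with normexp and 1.68 to 2.17 with 1 array left out. The median CL minus saline difference was -0.54 to -0.35 with 1 array left out, and turned to 0.06 when members were chosen with saline white fat array 2 and CL array 2 was set against saline array 1; the 3 other such pairings gave -0.32, -0.54 and -0.41. For CL-treated white fat against brown fat the median difference was 1.06 with normexp and 1.28 to 1.74 with 1 array left out. The number of members called there was 27 with median scaling, 31 in the deposited table, 27 when a probe had to be well above background on each of the 6 arrays, 35 with only the table's probes tested, 6 with no filter, 2 with array weights and 1 to 52 with 1 array left out. Over all probes that comparison called 864 higher and 657 lower, against 411 and 843 in the deposited table and 1008 and 1647 with normexp. With the replicate block the number of members called was 30, and 0 members were called against saline. Deviations of same-numbered arrays correlated at 0.50 between saline and CL white fat and at -0.02 and -0.08 between brown fat and these groups. The labels name nothing that a number shares and each group has 2 arrays, so the numbers were not taken as pairing the samples. The timing counts, 21 and 7, were 12 and 3 with normexp and 20 to 23 and 6 to 7 in the 4 other settings. Causes were not tested. Of 746 alternative values for 24 named members, 663 kept their direction and side of the threshold, 35 kept their direction and no longer passed, 30 newly passed and 18 changed sign, 0 of them past the threshold. With 1 array left out, CL minus saline ran from -0.91 to 0.40 for ASMM9PARTA001923, -0.12 to 0.77 for ASMM9PARTA003792, -0.46 to 0.15 for ASMM9PARTA006809, -2.51 to 1.54 for ASMM9PARTA014141, -0.80 to 0.01 for ASMM9PARTA018350, -1.65 to 0.58 for ASMM9PARTA044744, -0.25 to 0.83 for ASMM9PARTA045616, -1.24 to 0.18 for ASMM9PARTA046627, -0.13 to 0.36 for ASMM9PARTA047299, -0.09 to 0.04 for ASMM9PARTA047300 (0.05 with median scaling) and -1.20 to 0.20 for ASMM9PARTA048653. CL minus brown fat ran from -0.47 to 3.59 for ASMM9PARTA014141. Dim signal limits the brown fat values of the 28 members not well above background on brown fat array 1.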

Other observations

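A few probes that are not members had profiles close to those of the member groups described above, and they were chosen after their values were seen. ASMM9PARTA004899, which is in the deposited table, stayed within 0.30 of ASMM9PARTA018300 on every array after each probe's mean was removed (r = 0.991 over 10 arrays), and ASMM9PARTA039581, which is not in the table, within 0.42. ASMM9PARTA022738, also outside the table, stayed within 0.35 of ASMM9PARTA013793 (r = 0.987).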
